A study of Mus musculus with 4 samples.

Results

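Spermidine (SD) was compared with vehicle in lumbar cord from G93A mice, and the comparison covers 12987 of the 18674 gene names in the deposited table. A gene entered where its mean over the 4 libraries of the series was at least 1 RPKM (reads per transcript kilobase, adjusted for library depth), and the other 5687 names lay under that level. G93A mice carry a mutant human SOD1 transgene and serve as a model of amyotrophic lateral sclerosis (ALS), in which spinal motor neurons degenerate. Per the methods, males of the high-expresser line were crossed with B6/SJLF1 females, so that the background of the offspring is mixed. G93A + SD stands for transgenic mice given SD and G93A vehicle for transgenic mice given PBS, which other passages of the methods call saline and 1 label field gives as no treatment. WT + SD and WT vehicle stand for mice without the transgene under the same treatments. SD was given 4 times a week for 30 days, and mice were killed at 100 days of age. The methods give 5 mg/kg by intraperitoneal injection for the treated cohorts of the study, without naming the sequenced mice. The methods say that males were used for the treatment studies, the labels give no sex, and the number of mice behind a library is not given in the sources used here. With 1 library per condition there is no replicate and no p-value, and each difference below separates 2 libraries rather than 2 conditions.

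SD is a polyamine made from putrescine by spermidine synthase, and it is the donor of the amino-butyl group that turns a lysine of eIF5A into hypusine. Polyamines also bind nucleic acids and are linked to autophagy. The study asked whether SD acts through LSD1, a demethylase that removes methyl groups from lysine 4 of histone H3 and works in repressor complexes. In the cord of G93A mice, large motor neurons with neurofilament-rich axons are lost, while astrocytes and microglia turn reactive and switch on intermediate filament, lysosomal, complement and lipid-handling genes.

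The estimated depth was close in all 4 libraries and ranged, in units of 1e6 read pairs, from 36.8 in WT vehicle to 38.6 in G93A + SD. The estimate could only fall within a range set in advance, so libraries of unlike depth could also have come out close. The genotype labels could be checked on glial genes, since Gfap read 441, 386, 2269 and 2707 RPKM and Lyz2 4.64, 4.17, 509.7 and 475 RPKM where the WT libraries come first and in each genotype vehicle precedes SD. That order holds for every set of 4 levels below. The mouse Sod1 gene does not report on the human transgene and read 29.0, 31.1, 31.9 and 29.3 RPKM. No transcript marks SD itself, so that the SD labels could not be checked. Neuronal, astrocyte, myelin and Hox genes of the cord were present in each library, and the Y-linked gene Ddx3y was present in all 4 at 18.4 to 21.8 RPKM.

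Few genes separated the G93A libraries. At least 1.5-fold higher in G93A + SD were 161 genes, or 1.24% of those tested, and at least 1.5-fold lower were 121 genes, or 0.932%. Such a gene is said below to have risen or fallen, with no statistical meaning, and a difference is the log2 of RPKM + 0.1 in G93A + SD minus that in G93A vehicle. The median difference over all genes was 0.01, the central 90% of genes lay between -0.31 and 0.34, and 69 genes were past 2-fold. Any amount lower in G93A + SD were 47.9% of genes and any amount higher were 52.1%, which are the shares to hold against the counts of each list below. The WT pair, WT + SD against WT vehicle, shares no library with the G93A pair and shows how far another pair of libraries with the same contrast lies apart. There, 95 genes (0.732%) were at least 1.5-fold higher and 151 (1.16%) at least 1.5-fold lower, with the central 90% between -0.29 and 0.26, and 45.1% were any amount lower and 54.9% any amount higher. In the total number of genes past 1.5-fold the pairs were close, at 282 (2.17%) and 246 (1.89%), and whether SD changed more genes in G93A than in WT cord could not be tested.

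**Figure D1:**
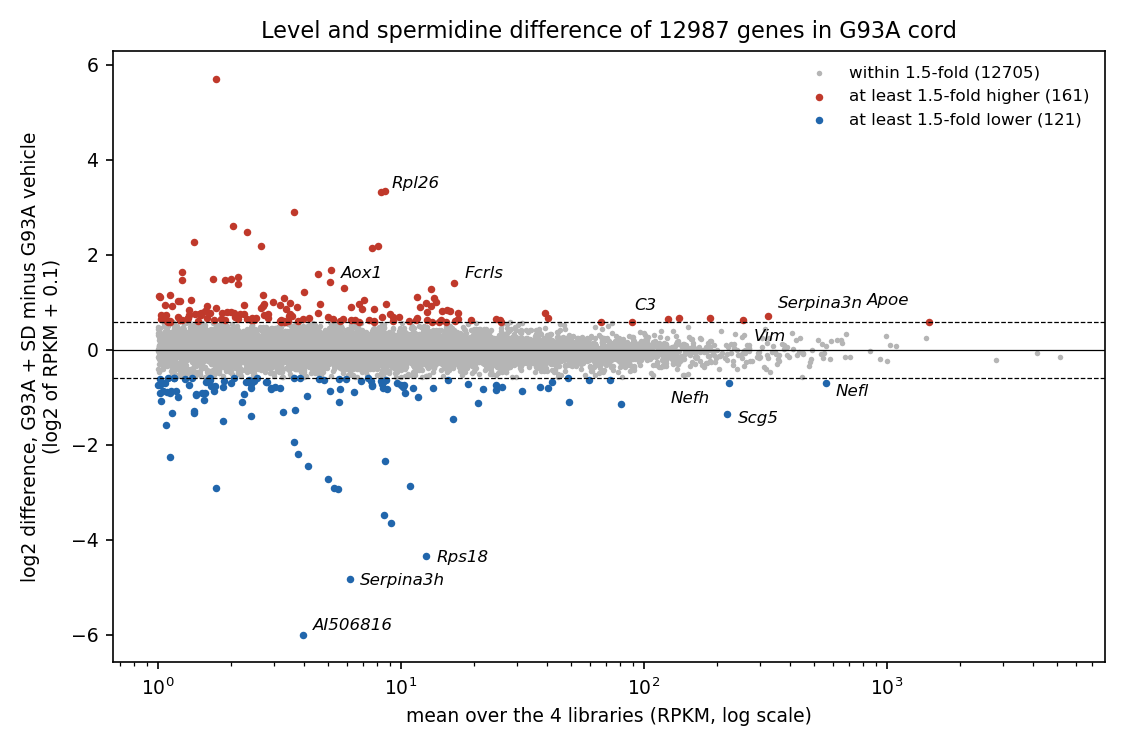
Each point is 1 of 12987 genes, with its mean level over the 4 libraries (RPKM, log scale) on the x axis and the log2 difference of G93A + SD from G93A vehicle on the y axis; the dashed lines mark 1.5-fold. Most genes lie within 1.5-fold, and past it on the right of the plot are Apoe, Serpina3n, Vim and C3 above and Nefl, Nefh and Scg5 below.

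The shares of the pairs differed most among genes of high mean level. At a mean level of 100 RPKM or more there were 343 genes, of which 6 rose and 3 fell, or 2.62% against 0.292% in the WT pair. The 6 that rose were Apoe, Serpina3n, Vim, C3, S100a6 and B2m, and the 3 that fell were Nefl, Nefh and Scg5. The level is the mean over the 4 libraries, and Serpina3n, Vim, C3, S100a6 and B2m were under 100 RPKM in both WT libraries. The shares at this level therefore do not compare the pairs at like levels. Between 1 and 5 RPKM the shares were alike, at 3.94% and 4.18%. Apoe, the main lipid carrier of the nervous system, read 586, 461, 1975 and 2975 RPKM and rose by 0.59, or by 0.58, just short of 1.5-fold, with the libraries scaled by median ratios. Serpina3n, a protease inhibitor of reactive astrocytes, read 27.8, 24.5, 473 and 772 RPKM and rose by 0.71. Vim, which encodes the intermediate filament vimentin, read 29.8, 27.8, 379 and 586 RPKM and rose by 0.63. These 3 glial genes were highest in G93A + SD, and both WT libraries were far below both G93A libraries. S100a6, a calcium-binding protein, read 22.2, 21.7, 199 and 318 RPKM and showed the same order of the G93A libraries with a difference of 0.67. B2m, the light chain of MHC class I, read 80.0, 60.7, 236 and 375 RPKM.

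The abundant genes that fell were neuronal. Nefl, the light neurofilament chain of large axons, read 812, 763, 413 and 254 RPKM and fell by 0.70. Nefh, the heavy chain, read 327, 313, 159.9 and 99.2 RPKM and fell by 0.69. Both chains were lowest in G93A + SD and highest in the WT libraries, which lay within 0.09 of each other on the log2 scale. Scg5, a chaperone of the secretory granule that keeps prohormone convertase 2 inactive, read 281, 292, 222 and 86.9 RPKM and fell by 1.35, a 2.56-fold difference. G93A + SD stood apart from the other 3 libraries in this gene. A part of the Nefl transcript used here, 31.8% of its read-length windows, also occurs in a transcript annotated to the neighbouring gene Nefm, so that the counting could have split reads between them.

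**Figure D2:**
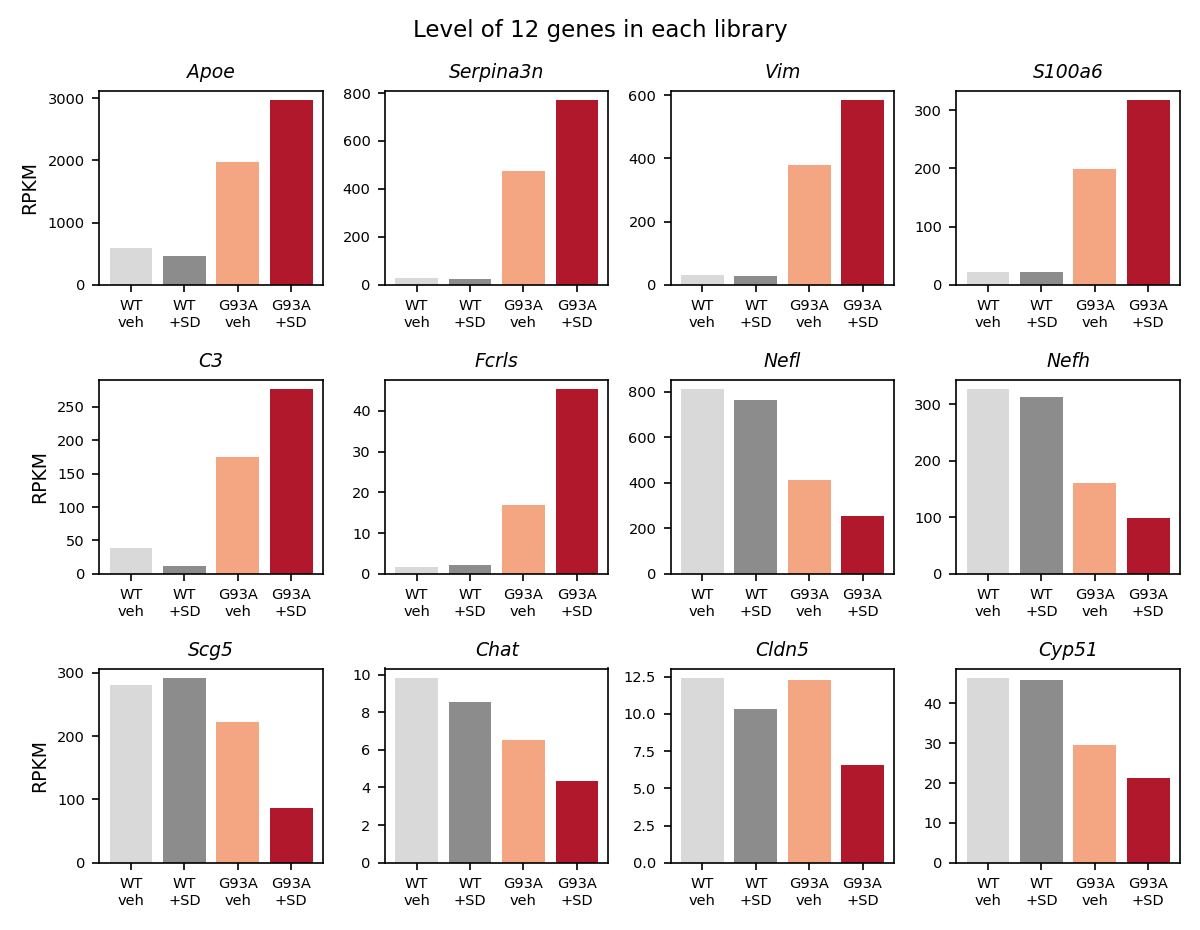
Bars give the RPKM of 12 genes in the libraries of WT and G93A cord with vehicle and SD, 1 each, on axes that start at 0. Apoe, Serpina3n, Vim, S100a6, C3 and Fcrls are highest in G93A + SD, and Nefl, Nefh, Scg5, Chat, Cldn5 and Cyp51 are lowest there.

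Genes of cholinergic motor neurons were mostly lower in the SD-treated G93A library. Of 13 tested members 11 were lower by any amount, 3 fell and 0 rose, with a median of -0.38, while in the WT pair 7 of 13 were lower with a median of -0.00. Chat, the enzyme that makes acetylcholine, read 9.83, 8.57, 6.55 and 4.33 RPKM and fell by 0.59. Chodl, a lectin found in fast motor neurons, read 19.0, 15.2, 6.69 and 3.80 RPKM and fell by 0.80. Mmp9, a metalloproteinase of fast motor neurons, read 2.61, 2.26, 1.30 and 0.667 RPKM and fell by 0.87. With a pseudocount of 1, Chat and Mmp9 were short of 1.5-fold. All 3 were lowest in G93A + SD, next lowest in G93A vehicle and highest in WT vehicle. The choline transporter Slc5a7 read 28.2, 28.2, 21.9 and 16.1 RPKM, a difference of -0.44 that stayed inside 1.5-fold. The 2 members that were higher in G93A + SD were within 0.15, among them Gfra1, a GDNF receptor, at 33.0 and 36.6 RPKM in the G93A libraries. In bulk cord a smaller number of cells of a type and less RNA in each of them cannot be told apart.

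The axonal and synaptic lists lay on the same side. All 11 tested neurofilament and axon cytoskeleton genes were lower in G93A + SD, 2 of them past 1.5-fold, and the median was -0.33 against -0.07 in the WT pair. Nefm read 612, 603, 347 and 234 RPKM, a difference of -0.56, and Stmn3, which regulates microtubules, read 231 and 183 RPKM in G93A vehicle and G93A + SD. Of 21 synaptic vesicle and release genes 17 were lower and 0 passed 1.5-fold in either direction, with a median of -0.24 against -0.01. The fusion protein Snap25 read 1268, 1292, 782 and 661 RPKM, and Vamp1, its partner on vesicles, read 420.1, 432, 276 and 199 RPKM. Levels of both were alike in the WT libraries, lower in G93A vehicle and lowest in G93A + SD.

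Among ion channels, 63 potassium channel genes had 3 members that fell and 1 that rose, and the median was -0.06, or -0.16 over the 36 genes above a mean of 5 RPKM. The 3 were the modulatory subunits Kcng4, at 24.997, 24.1, 16.6 and 9.998 RPKM, Kcns3, at 9.21, 9.29, 5.47 and 3.41 RPKM, and Kcng1, which was under 1 RPKM in both G93A libraries. Kcns3 and Kcng1 were short of 1.5-fold with a pseudocount of 1, at -0.55 and -0.38. Kcne1l, a small accessory subunit, rose from 24.3 to 37.5 RPKM. Of 9 sodium channel genes 0 passed 1.5-fold, and Scn4b, an auxiliary subunit of fast-firing neurons, read 113, 104, 64.5 and 43.5 RPKM with a difference of -0.57.

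Lists of other spinal neurons had medians nearer 0. The 13 tested inhibitory neuron genes had a median of -0.08, with 7 lower and 6 higher and 0 past 1.5-fold. The GABA-synthesizing enzyme Gad1 read 36.2 and 43.2 RPKM in G93A vehicle and G93A + SD, whereas the vesicular transporter Slc32a1 read 31.8 and 24.3 RPKM, so that members of this list differed in sign. The 10 excitatory neuron genes had a median of 0.09, with 8 higher and 0 past 1.5-fold. Dorsal horn neuropeptide genes were higher in 16 of 18 cases with a median of 0.16, against 7 of 18 and -0.08 in the WT pair, and 0 passed 1.5-fold. Penk, the enkephalin precursor, read 101, 94.6, 79.4 and 90.3 RPKM. Sst, which encodes somatostatin, read 88.4, 84.0, 71.8 and 73.1 RPKM, and Tac2, which encodes neurokinin B, read 33.3, 27.5, 24.8 and 31.1 RPKM. For these peptides G93A vehicle was the lowest library and G93A + SD lay within the range of the other 3, with Sst nearly level between the G93A libraries.

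**Figure D3:**
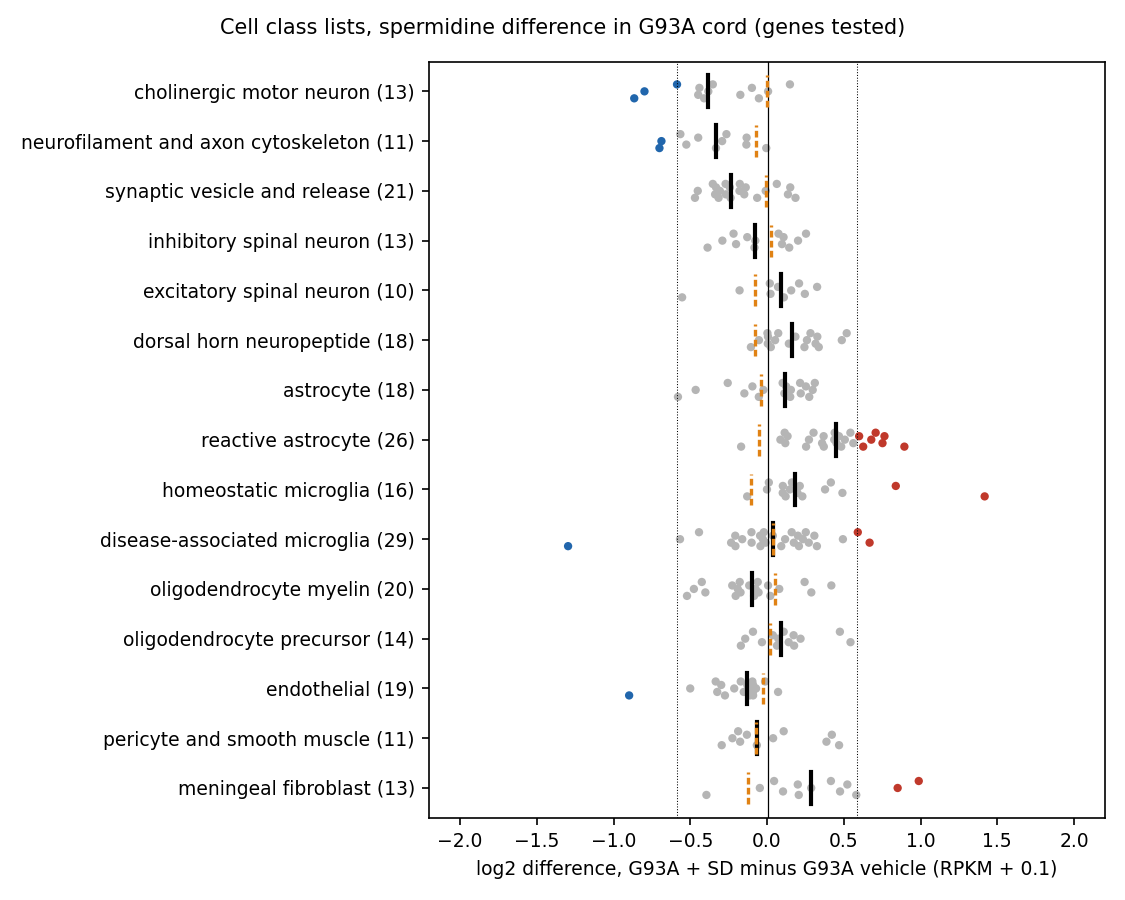
Each row is a cell class list with the number of genes tested in brackets, and each point is a gene placed by its log2 difference between G93A + SD and G93A vehicle (red, at least 1.5-fold higher; blue, at least 1.5-fold lower; grey, within 1.5-fold). Black bars are list medians in the G93A pair and dashed orange bars those in the WT pair; motor neuron, neurofilament and synaptic medians lie at -0.38, -0.33 and -0.24 and the reactive astrocyte median at 0.45.

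Reactive astrocyte genes stood on the other side. Of 26 tested members 25 were higher in G93A + SD, 7 rose and 0 fell, and the median was 0.45, against 10 of 26 higher and a median of -0.05 in the WT pair. The 7 were Cd109, Cxcl10, Ptx3, Serpina3n, Hspb1, Vim and Osmr. Cd109, a surface protein that binds TGF-beta, read 1.07, 1.34, 15.95 and 29.7 RPKM and rose by 0.89. Hspb1, a small heat shock protein, read 7.32, 6.08, 56.8 and 91.1 RPKM and rose by 0.68, with 59.6% of its windows shared, mostly with a pseudogene. Osmr, the oncostatin M receptor, read 1.08, 1.02, 11.5 and 17.4 RPKM and was short of 1.5-fold with a pseudocount of 1, at 0.56. In each of these 3 genes G93A + SD was the highest library and G93A vehicle was next. Gfap, the filament protein that defines astrocytes, was 0.25 higher and did not pass 1.5-fold, and Lcn2 was the 1 member that was lower, at 5.27 and 4.67 RPKM. The summed level of the 26 genes was 595, 535, 3562 and 4674 RPKM. General astrocyte genes had a median of 0.12 with 0 of 18 past 1.5-fold, among them the water channel Aqp4 at 159.5, 162, 319 and 396 RPKM and the enzyme Aldoc at 764 and 689.6 RPKM in the G93A libraries.

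Microglial genes did not move as a block. Homeostatic microglia genes were higher in 14 of 16 cases, with 2 that rose, 0 that fell and a median of 0.18. Fcrls, an Fc receptor-like protein of resident microglia, read 1.61, 2.07, 16.9 and 45.4 RPKM and rose 2.67-fold. Olfml3, a secreted protein of microglia, read 8.14, 4.77, 17.6 and 31.6 RPKM and rose by 0.84. The other 14 members were within 1.5-fold, and the receptor Csf1r, at 74.9 RPKM in both G93A libraries, did not separate them. Disease-associated microglia genes had a median of 0.04 with 15 of 29 higher, which is near the share of all genes, and 2 rose (Apoe and B2m) while Mmp12 fell. Mmp12, the macrophage elastase, read 0, 0.154, 3.94 and 1.55 RPKM. Within this list the protease Ctsd read 1545 and 1516 RPKM and the lysozyme Lyz2 509.7 and 475 RPKM in G93A vehicle and G93A + SD, whereas Ctsb read 438 and 522 RPKM. Trem2, a lipid receptor of microglia singled out after its values were seen, read 5.31, 5.50, 65.1 and 43.9 RPKM, a difference of -0.57 just inside the threshold and opposite in sign to Apoe, a ligand of that receptor.

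Lysosomal genes were higher in 31 of 39 cases with a median of 0.13, and the single member past 1.5-fold went the other way. That member was Gaa, the acid alpha-glucosidase that breaks down glycogen, at 54.5, 64.5, 72.1 and 46.3 RPKM. The cathepsin Ctss, abundant in microglia, read 50.4, 44.3, 320.0 and 421 RPKM. The 8 tested galectin and MS4A genes were all higher in G93A + SD by up to 0.46, with a median of 0.27 and 0 past 1.5-fold, and over the 4 genes above a mean of 5 RPKM the median was 0.12. Axon injury genes were higher in 15 of 18 cases with a median of 0.27 and 0 past 1.5-fold, and Gap43, a growth cone protein, read 104 and 112 RPKM in G93A vehicle and G93A + SD.

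Of 17 tested complement genes 14 were higher in G93A + SD, 2 rose and 0 fell, with a median of 0.18 against -0.10 in the WT pair. C3, the central component, read 38.5, 12.4, 175 and 277 RPKM, so that the SD library was the higher in G93A cord and the lower in WT cord. C4a read 0.241, 1.55, 0.824 and 5.55 RPKM and was higher in the SD library of both pairs. Its transcript shares 43.2% of read-length windows with its near-identical copy C4b, and reads of the copies could have been split by the counting. C1qa and C1qb, subunits of the initiating complex, read 281 and 261 RPKM and 179 and 221 RPKM in G93A vehicle and G93A + SD, so that their differences were opposite in sign.

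MHC genes moved in both directions. In MHC class I presentation, 1 of 16 tested genes rose (B2m) and 4 fell (H2-T22, H2-T23, H2-T24 and H2-D1), while the median was 0.10 with 12 of 16 higher. In the WT pair 14 of 16 were lower, 7 of them past 1.5-fold, with a median of -0.47, and the difference between the pairs was not tested. H2-T22, a nonclassical class I gene, shares 42.7% of its read-length windows with other genes, mostly H2-T10, which read 2.17, 3.35, 0.857 and 4.23 RPKM and rose, so that reads of the copies could have been split. H2-T22 read 5.52, 1.23, 12.9 and 1.64 RPKM, and H2-D1, a classical heavy chain, read 24.8, 8.65, 73.7 and 43.0 RPKM. For the 4 that fell the SD library was past 1.5-fold lower in both genotypes. In MHC class II presentation, 4 of 8 fell and 1 rose, with a median of -0.50. That median was -0.35 with a pseudocount of 1, where H2-Eb1 was short of 1.5-fold at -0.44, and -0.01 over the 3 genes above a mean of 5 RPKM. H2-Ab1 and H2-Aa, the chains of the class II dimer, read 2.72 and 1.028 RPKM and 3.20 and 1.495 RPKM in G93A vehicle and G93A + SD. Cd74, the class II invariant chain, which lies outside the MHC, read 1.53, 1.70, 10.97 and 10.9 RPKM and did not separate the G93A libraries. H2-Ob, which encodes a chain of the class II modulator DO, read 0.231, 1.35, 1.11 and 6.64 RPKM and was higher in both SD libraries.

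Interferon-stimulated genes were higher in 24 of 27 cases in the G93A pair, yet by little, with a median of 0.10 and 2 that rose. These 2 were the chemokine Cxcl10, at 0.626, 0.330, 2.97 and 5.11 RPKM, and Ifi35, at 0.554, 1.70, 1.77 and 2.79 RPKM, of which Ifi35 was short of 1.5-fold with a pseudocount of 1, at 0.45. In the WT pair 23 of 27 were lower with a median of -0.25, and Ifit3, an RNA-binding antiviral protein, read 8.10, 4.41, 11.3 and 13.5 RPKM. The difference between the pairs was not tested.

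Oligodendrocyte myelin genes had 0 of 20 past 1.5-fold, 14 lower and a median of -0.10. Mbp, a main protein of compact myelin, read 3714 and 3575 RPKM in G93A vehicle and G93A + SD. Precursor genes had a median of 0.09 and 0 of 14 past 1.5-fold. Hapln2, a link protein of the matrix at nodes of Ranvier that was picked out after its values were seen, read 47.1, 45.4, 46.2 and 28.7 RPKM and stood apart in G93A + SD alone.

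Endothelial genes were lower in 18 of 19 cases, by a median of -0.13, against 12 of 19 and -0.03 in the WT pair. Cldn5, the claudin of blood-brain barrier tight junctions, read 12.4, 10.3, 12.3 and 6.55 RPKM and was the 1 member that fell, by 0.90. The glucose transporter Slc2a1 read 49.1 and 46.1 RPKM in G93A vehicle and G93A + SD, and the 18 members other than Cldn5 were within 1.5-fold. Pericyte and smooth muscle genes had a median of -0.07 and 0 of 11 past 1.5-fold, and the median over the 4 genes above a mean of 5 RPKM was 0.15.

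Of 13 meningeal fibroblast genes 11 were higher and 2 rose, Bmp6 (2.43, 2.36, 3.06 and 6.17 RPKM), a bone morphogenetic protein, and Dcn (5.52, 6.98, 5.42 and 9.85 RPKM), the proteoglycan decorin. The list was not uniform, since its most abundant gene Ptgds, a prostaglandin synthase of the meninges, read 298 and 227 RPKM and the summed level was 466 RPKM in G93A vehicle and 464 RPKM in G93A + SD. Of 20 collagen genes 2 rose, Col23a1 and Col11a1, with a median of 0.16, and both were short of 1.5-fold with a pseudocount of 1, at 0.57 and 0.52. Of 24 metalloproteinase and TIMP genes 17 were higher with a median of 0.11, Mmp2 rose, and Adamts4, Mmp12 and Mmp9 fell. Some secreted genes outside the lists were picked because they rose and stand for no group. The first of these, Fn1, which encodes fibronectin, read 5.01, 4.90, 15.1 and 26.1 RPKM, and Igfbp5, a binding protein of insulin-like growth factors, read 14.8, 15.6, 46.8 and 80.1 RPKM. Thbs2, a thrombospondin, read 4.35, 7.42, 21.1 and 36.2 RPKM. Fn1 and Igfbp5 were nearly equal in the WT libraries, whereas Thbs2 was higher in the SD library of both pairs.

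Markers of cells that should be scarce in cord were at or near the floor of the table. Of the listed names found in the deposited table, 0 of 13 on the neutrophil and monocyte list reached a mean of 1 RPKM. On the T cell list 2 of 19 did, on the skeletal muscle list 1 of 17 and on the dorsal root ganglion list 3 of 12. The last 3 were Calca, Tac1 and Th, which cord neurons also express. The globin genes Hba-a1, Hba-a2, Hbb-b1 and Hbb-b2 differed by at most 0.14 between the G93A libraries, with Hba-a1 at 10.2, 20.8, 15.5 and 17.02 RPKM. The share of these cells and of blood in the differences was not tested beyond these levels.

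Cholesterol synthesis genes were lower in G93A + SD without exception. All 23 tested members lay below 0, from -0.60 to -0.01, with a median of -0.30 and 1 past 1.5-fold, against 18 of 23 lower and a median of -0.11 in the WT pair. Sqle, squalene epoxidase, read 48.6, 47.9, 34.1 and 25.1 RPKM, and Cyp51, lanosterol demethylase, read 46.4, 45.8, 29.5 and 21.4 RPKM. Sc4mol, a sterol methyl oxidase, read 88.4, 89.3, 65.4 and 50.6 RPKM. These 3 were lowest in G93A + SD and higher in both WT libraries than in either G93A library. Insig1, the sterol-sensing brake of the pathway, was level at 25.6 and 25.4 RPKM. Sterol handling genes moved otherwise, with a median of 0.04 over 22 genes and 2 that rose, Apoe and Abca1. Abca1, the transporter that loads cholesterol onto apolipoproteins, read 4.90, 4.39, 17.9 and 31.9 RPKM.

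Because the 23 cholesterol genes lay on 1 side together, their promoters were searched for shared letters. The RefSeq promoter table (GRCm38.p6) holds 16 of the 23 genes, with a window from 250 bases before to 50 bases after the start. Letters were searched on both strands, and a gene with several windows counted when any of them matched. CCAAT, the box bound by NF-Y, was in 15 of 16 genes (93.8%), all but Acat2, and in 37.4% of all 32851 windows and 42.8% of the 9077 tested genes with a window. As 3 further motifs, related to the sterol response element, TCACNCCAC and shorter or stricter forms of it were searched, with matches in 0 of 16 genes for TCACNCCAC (1.24% of all windows), 0 of 16 for TCACCCCAC (0.551%), which is contained in the first, and 1 of 16 for CACCCCAC (2.87%), which is contained in the second. The matches describe the letters in these windows and are no evidence of binding in cord. The stretches below are the 150 bases before the start of the 4 genes with the most negative differences that have a single window, Mvk (-0.57), Mvd (-0.57), Cyp51 (-0.47) and Sc4mol (-0.37, listed as Msmo1), with CCAAT or its complement ATTGG in capitals. They stand at chr5:114444119-114444268 on the plus strand, and at chr8:122443423-122443572, chr5:4104698-4104847 and chr8:64733579-64733728 on the minus strand.
Mvk: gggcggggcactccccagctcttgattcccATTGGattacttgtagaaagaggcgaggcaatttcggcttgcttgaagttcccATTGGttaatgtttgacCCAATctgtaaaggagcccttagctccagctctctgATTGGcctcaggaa
Mvd: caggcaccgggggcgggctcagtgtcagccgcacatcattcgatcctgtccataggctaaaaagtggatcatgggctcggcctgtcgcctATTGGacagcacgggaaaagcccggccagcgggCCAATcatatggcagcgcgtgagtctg
Cyp51: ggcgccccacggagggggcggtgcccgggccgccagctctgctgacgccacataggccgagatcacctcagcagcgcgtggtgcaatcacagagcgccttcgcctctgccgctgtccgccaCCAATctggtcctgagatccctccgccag
Sc4mol: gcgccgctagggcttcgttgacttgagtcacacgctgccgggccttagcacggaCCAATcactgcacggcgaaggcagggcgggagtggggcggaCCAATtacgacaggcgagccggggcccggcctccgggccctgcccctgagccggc
The box begins at bases -120, -67, -50 and -14 of Mvk, at -60 and -27 of Mvd, at -29 of Cyp51 and at -96 and -55 of Sc4mol, where -1 is the base before the start. Mvk thus holds 4 boxes in this stretch and Cyp51 holds 1, while their differences were -0.57 and -0.47.

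Genes closest to SD and to the question of the study stayed within 1.5-fold between the G93A libraries. Of 24 tested genes of polyamine synthesis, breakdown and hypusine formation 0 passed 1.5-fold, the median was -0.04 in both pairs and the range in the G93A pair was -0.38 to 0.35. Sat1, the acetyltransferase that opens polyamine breakdown, read 21.6, 21.3, 47.3 and 60.1 RPKM, a difference of 0.35 that was among the furthest from 0 in the list. Sms, spermine synthase, read 23.1 and 22.6 RPKM and Eif5a 90.0 and 87.2 RPKM in G93A vehicle and G93A + SD. Of 24 genes of LSD1 and its corepressor complexes 0 passed 1.5-fold, the median was 0.02 and the range -0.18 to 0.21. Kdm1a, which encodes LSD1, read 15.3, 15.4, 17.8 and 17.1 RPKM. Of 37 core autophagy genes 0 passed 1.5-fold, the median was -0.02 and the range -0.16 to 0.17, and the receptor Sqstm1 read 195.2 and 205 RPKM in the G93A libraries. These levels concern RNA and not enzyme activity, histone marks or polyamine content, which were not analysed here.

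**Figure D4:**
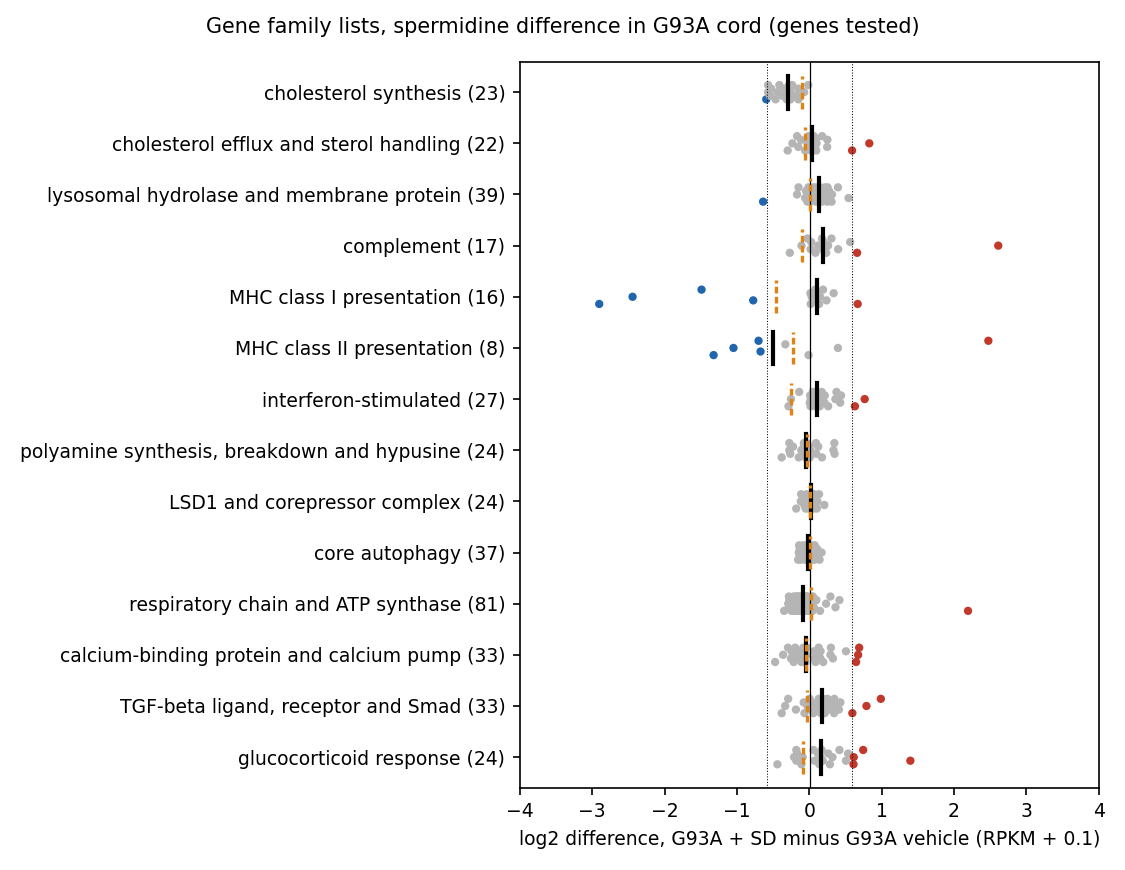
Gene family lists are drawn as for the cell classes, with the number of genes tested in brackets, each gene at its log2 difference between G93A + SD and G93A vehicle, black bars at medians of the G93A pair and dashed orange bars at medians of the WT pair. All 23 cholesterol synthesis genes lie left of 0, polyamine, LSD1 and autophagy genes cluster at 0, and the MHC lists hold points on both sides past 1.5-fold.

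Respiratory chain and ATP synthase genes showed a small common shift. Of 81 tested genes 65 were lower in G93A + SD, with a median of -0.08, while in the WT pair 32 were lower and the median was 0.03. Atp5b, the catalytic subunit, read 592, 584, 529 and 473 RPKM. The 1 gene past 1.5-fold was Atp5g1, a subunit of the membrane ring, which rose from 1.66 to 7.95 RPKM and read 1.74 and 20.9 RPKM in the WT libraries, so that both SD libraries were the higher. Cytosolic ribosomal protein genes had a median of 0.03 over 78 genes, with 4 that rose (Rpl26, Rpl34, Rpl30 and Rps13) and 5 that fell (Rps18, Rps2, Rpl35a, Rps4y2 and Rpl38). Every one of these 9 transcripts except Rps4y2, at 13.97%, shares at least 39.5% of its read-length windows with other genes, mostly processed pseudogenes, which makes their values uncertain. Windows were counted only for genes past 1.5-fold, so whether the other ribosomal protein genes share as much was not examined. With a pseudocount of 1, Rps13 and Rpl38 were short of 1.5-fold, at 0.53 and -0.43.

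A few further lists held a few genes that rose. In the TGF-beta and BMP list, 26 of 33 genes were higher, 3 rose, among them Bmp6 and Id3, and the median was 0.18. Id3, a target of BMP signalling that blocks helix-loop-helix factors, read 17.6, 19.0, 26.5 and 40.1 RPKM and was just short of 1.5-fold, at 0.58, with a pseudocount of 1 or median-ratio scaling. Among calcium-binding proteins S100a4, S100a6 and S100a11 rose while the list median was -0.04, and the astrocyte member S100b read 411 and 396 RPKM. S100a4 read 2.49, 1.68, 36.7 and 57.5 RPKM, which puts both G93A libraries far above both WT libraries. Of their windows S100a4 shares 55.6% and S100a11 41.3% with other genes. In the glucocorticoid response list Xdh, Hif3a, Zbtb16 and Plin4 rose, with a median of 0.16 over 24 genes. With a pseudocount of 1 Xdh was past 1.5-fold, while Hif3a, Zbtb16 and Plin4 were short of it at 0.44, 0.49 and 0.53. Xdh, xanthine dehydrogenase, read 1.58, 1.38, 1.49 and 4.08 RPKM and was high in G93A + SD alone, whereas Fkbp5, a receptor co-chaperone often used as a marker of glucocorticoids, read 8.11 and 9.90 RPKM in the G93A libraries.

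The genes past 1.5-fold were unevenly spread along the genome. Of the 282 genes past 1.5-fold in the G93A pair, 78 were past 1.5-fold in the WT pair as well, which is 27.7% of the former and 31.7% of the 246 in the latter. In 53 of them both SD libraries deviated the same way (20 higher and 33 lower), and in 25 they deviated in opposite ways. Chromosome 17 held 34 of the 282 among 618 genes tested (5.5%), against 6.47% of its genes in the WT pair, and 17 of the 19 that were past 1.5-fold in both pairs had the same sign. Within a span of 11.96 Mb, chr17:24163866-36121465, from Atp6v0c to H2-T10 and chosen after the values were seen, 4 of 270 genes rose and 16 fell, and 15 of these 20 were past 1.5-fold the same way in WT cord. The other 5, Cdsn and the class II genes H2-Aa, H2-Ab1, H2-DMa and H2-Eb1, had the same sign there within 1.5-fold. Rps18, a ribosomal protein of the small subunit, read 15.8, 0.798, 32.6 and 1.51 RPKM. Hmga1, a chromatin protein, read 19.2, 1.12, 12.7 and 1.04 RPKM, and Atp6v0c, the ring subunit of the vacuolar proton pump, read 24.1, 2.82, 14.8 and 1.94 RPKM. In these genes both SD libraries were low and both vehicle libraries were high, whatever the genotype. Their transcripts share 86.3% (Rps18), 68.5% (Hmga1) and 31.3% (Atp6v0c) of read-length windows with other genes, which makes the 3 levels uncertain. Cbs, a gene of the span with no shared windows, read 13.6, 6.54, 12.4 and 7.43 RPKM and was also lower in both SD libraries. The span includes the MHC, and the H2 genes described above lie in it. Whether the mice of the SD libraries carried other alleles there than those of the vehicle libraries was not tested, and treatment and individual cannot be told apart with 1 library per condition.

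A shorter span on chromosome 1, chr1:171229572-179546267, from Fcer1g to Tfb2m and also chosen after the values were seen, held 6 of 56 genes past 1.5-fold, 4 of them also past 1.5-fold the same way in WT cord and the other 2 with the same sign there. Adamts4, an aggrecan-cleaving metalloproteinase, read 10.9, 3.23, 16.98 and 3.29 RPKM. Fcer1g, the signalling chain of Fc receptors, read 3.89, 2.07, 52.0 and 29.2 RPKM, so that a microglial gene lay below its vehicle library in both genotypes. Ifi202b, an interferon-inducible DNA sensor, read 0.0753, 0.160, 0.0293 and 6.69 RPKM and reached 1 RPKM in G93A + SD alone. Darc, a chemokine receptor of red cells and venules, read 20.4, 12.99, 23.8 and 8.64 RPKM, with the SD library the lower in both genotypes. On chromosome 2, all 6 genes past 1.5-fold in both pairs had opposite signs, among them Eif3j at 3.18, 0.176, 3.75 and 8.85 RPKM, 54.4% of whose windows occur in other genes.

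**Figure D5:**
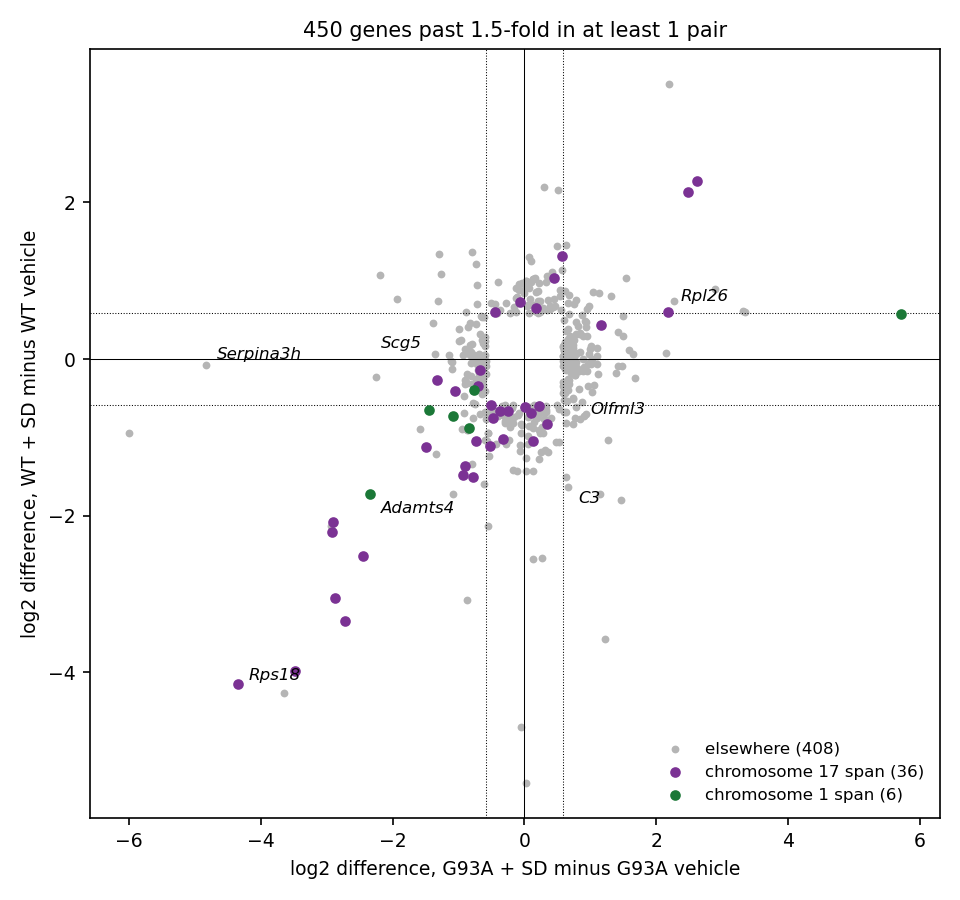
Each point is 1 of the 450 genes past 1.5-fold in at least 1 pair, with the log2 difference of the G93A pair on the x axis and that of the WT pair on the y axis; dotted lines mark 1.5-fold. The chromosome 17 span (36 genes, purple) and the chromosome 1 span (6 genes, green) lie mostly in the lower left, where Rps18 is at -4.34 and -4.15, with Ifi202b at 5.71 on the far right, while C3 and Olfml3 lie to the lower right.

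The 15 furthest rises and 15 furthest falls over the 8847 genes whose mean reached 5 RPKM began at differences of 0.97 and -1.10. Of these, 4 rises and 9 falls were past 1.5-fold the same way in the WT pair. Rpl26, a ribosomal protein of the large subunit on chromosome 11 (chr11:68901583-68906989), read 7.44, 11.4, 1.22 and 13.04 RPKM, and the pseudogene Gm15772 on chromosome 5, which holds 89.7% shared windows, read 7.77, 11.9, 1.25 and 13.6 RPKM. In both, G93A vehicle was the library that stood apart, and reads within the shared windows cannot be assigned to either locus. Pttg1, the mitotic securin, with no shared windows, was also low in G93A vehicle alone, at 9.11, 9.59, 2.07 and 9.54 RPKM. Hddc3, a nucleotide hydrolase with 69.9% of its windows shared with another gene, read 17.4, 8.46, 7.99 and 19.5 RPKM. Hddc3 differed from the others in that WT + SD was low as well.

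In Aox1, Qpct and G530011O06Rik G93A + SD was the library that stood apart. Aox1, an aldehyde oxidase at chr1:58029931-58106413, read 4.33, 4.06, 3.24 and 8.85 RPKM. Qpct, which closes the glutamine end of peptides, read 10.01, 10.96, 9.92 and 19.9 RPKM. The noncoding G530011O06Rik on the X chromosome, with 50.4% of its windows shared, mostly with Mid1, read 2.97, 2.48, 3.56 and 11.6 RPKM. In Tjap1, a tight junction associated protein, at 8.77, 8.39, 5.90 and 11.7 RPKM, G93A + SD was the highest library and G93A vehicle the lowest. Igfbp3, a carrier of insulin-like growth factors, read 3.01, 3.11, 12.8 and 27.7 RPKM, and Cyr61, a matricellular protein, read 1.24, 1.40, 17.6 and 35.5 RPKM. Those 2 genes and Fcrls were already higher in G93A vehicle than in WT cord and were higher still in G93A + SD. Agxt2l1, a phosphoethanolamine lyase of astrocytes, had the reverse order of genotypes, at 18.0, 17.2, 6.196 and 13.4 RPKM, and Wdfy1, a FYVE domain protein, read 5.12, 8.999, 2.59 and 6.59 RPKM, with the SD library the higher in both genotypes. Gm12191, a ribosomal pseudogene, shared 100% of its windows with other genes.

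Other furthest falls, outside the chromosome 17 and chromosome 1 spans, included Serpina3h, Aldh1a1, E030003E18Rik and Nnat, in which G93A vehicle was the highest library. Serpina3h, a transcribed pseudogene of the Serpina3 cluster on chromosome 12, read 0.635, 0.595, 22.7 and 0.707 RPKM, while its neighbour Serpina3n read higher in G93A + SD. Of the Serpina3h windows 22.3% are shared with other genes, mostly Serpina3i, and its mean reached 5 RPKM only through G93A vehicle. Aldh1a1, a retinaldehyde dehydrogenase, read 42.5, 44.1, 163 and 73.8 RPKM, and E030003E18Rik, which is annotated at the same locus on chromosome 19, showed the same order with a difference of -1.12. Nnat, an imprinted neuronal membrane protein, read 34.4, 33.6, 88.2 and 41.1 RPKM. In G93A + SD, Serpina3h and Nnat were within 1.5-fold of both WT libraries, whereas Aldh1a1 and E030003E18Rik were more than 1.5-fold above them. In Mrps10, a mitochondrial ribosomal protein, at 5.805, 5.33, 7.62 and 3.50 RPKM, the WT libraries lay between those of G93A cord. H2-T9 fell with H2-T22.

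Some genes of lower level had wider differences and were picked after their values were seen. Ctse, an aspartic protease of antigen-presenting cells, read 0.267, 0.583, 1.54 and 12.1 RPKM with a difference of 2.90. AI506816, a processed transcript on chromosome 5, read 5.74, 2.93, 7.12 and 0.0131 RPKM. Ctse was high and AI506816 nearly absent in G93A + SD alone, and both were past 1.5-fold the same way in the WT pair. Just past the 1.5-fold threshold were Tnfaip8l2, from 4.32 to 6.53 RPKM, and Erbb2ip, from 72.5 to 108.9 RPKM. Just short of it were Ccdc14, from 0.870 to 1.35 RPKM, and Ahnak, from 7.06 to 10.6 RPKM. Of the 270 genes past 1.5-fold that have a transcript length, 17 rested on fewer than 20 estimated read pairs in both G93A libraries, and the median of the larger estimate was 435 pairs.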

How the data were processed

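Polyadenylated RNA of lumbar cord was sequenced with 53-base reads in 4 libraries. The deposited table of the authors gives RPKM per gene row; the unit was inferred, since value times transcript length sums to nearly the same total in each library. STAR and GRCm38 come from the submitters' processing notes; the methods name HTSeq and Ensembl, and the step to these values is not given in the sources used here. Ratio columns of the authors were not used, and histone mark and PCR data were not analysed here.

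Rows of a gene name were averaged, genes were kept whose mean reached 1 RPKM, and log2 ratios used a pseudocount of 0.1 (Python 3.11.15, pandas 2.3.3, numpy 2.4.6, matplotlib 3.10.9). The script was tested on simulated data. Depth was estimated from the step between low values, searched within a range set in advance, and gives approximate counting precision only. Shared sequence was counted for genes past 1.5-fold only, as 53-base windows every 5 bases of GENCODE M21 transcripts. Alternatives were other pseudocounts, filters, thresholds, row choices and scalings. Members and gene lists were chosen with earlier results of these data known. Named genes were the 15 furthest on each side whose mean reached 5 RPKM, and in each list those past 1.5-fold and then the most abundant; the 4 promoters follow their own rule, and other genes named were chosen after their values were seen. A few genes are not reported here.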

Additional observations from a re-analysis of the deposited data

Results flagged for a closer look

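Given here are the named genes that were past 1.5-fold in opposite directions in the G93A pair and the WT pair, and the lists whose medians had opposite signs and were at least 0.1 from 0 in both. Genes that were not named by the rule, such as Eif3j, and MHC class I, whose medians were 0.10 (just under that limit) and -0.47, are left out. In each case the difference between the pairs was not tested, since each pair is 2 single libraries. C3 differed by 2.29 between the pairs on the log2 scale, being 0.66 higher in G93A + SD and 1.63 lower in WT + SD than in the vehicle library. Olfml3 differed by 1.599, Cxcl10 by 1.52 and Col11a1 by 1.32, each with the SD library higher in G93A cord and lower in WT cord. Hddc3 had the same signs with a difference of 2.31. Mmp12 had the reverse signs and a difference of -2.64, but it was at 0 and 0.154 RPKM in the WT libraries, where the size of the difference is set by the pseudocount and is no measured change. Among lists, medians differed by 0.29 for homeostatic microglia, 0.36 for chemokines, 0.39 for galectins and MS4A proteins, 0.41 for meningeal fibroblasts and 0.30 for collagens, all higher in G93A cord. The chemokine median of the G93A pair was -0.13 over the genes above a mean of 5 RPKM, the sign of the WT pair.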

How the results depend on the processing

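No paired analysis was possible because the G93A pair has 1 library per condition and the labels give no replicate numbers. With a pseudocount of 1 in place of 0.1, 91 genes rose and 66 fell, and Chat and Mmp9 had differences of -0.50 and -0.46, short of 1.5-fold. Of 97 named genes 24 were past 1.5-fold in the report and short of it with that pseudocount. Without a filter on low values the counts were 555 and 476 of 18674, above a mean of 5 RPKM they were 65 and 54 of 8847, and past 2-fold they were 37 and 32. Under the other alternatives tried the counts stayed within 1.5 times the reported ones; some of these alternatives were chosen after seeing the data. Leaving out genes past 1.5-fold the same way in the WT pair left 141 and 88, and leaving out chromosome 17 and genes with no position left 148 and 98. Of 232 list medians recomputed, 11 moved by at least 0.1 and 6 changed sign, all 6 with the floor at 5 RPKM: chemokines to -0.13, high mobility group genes to -0.071, ependymal genes to -0.36, pericyte genes to 0.15, cell cycle genes to 0.061 and LSD1 complex genes to -0.021. Other medians that moved at that floor were those of potassium channels to -0.16, galectins and MS4A proteins to 0.12, meningeal fibroblasts to 0.53, collagens to 0.30 and MHC class II to -0.01. Scaling the libraries by median ratios moved the median of all genes from 0.01 to -0.00 and took Apoe, Gabrg1 and Id3 to 0.58, just short of 1.5-fold. With 1 library per condition, treatment, individual and library cannot be told apart.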

Other observations

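Further genes past 1.5-fold were picked after their values were seen or come from lists not described above. Flnc, a filamin that crosslinks actin, read 2.27, 2.17, 16.2 and 26.03 RPKM, and Wisp2, a matricellular protein, read 0.143, 0.0662, 10.9 and 20.03 RPKM. Casp12, a caspase of the endoplasmic reticulum, read 1.37, 1.44, 9.01 and 14.1 RPKM. In these 3 genes the order was the one seen for Vim, with G93A + SD highest and both WT libraries far lower. Apln, a peptide hormone, read 20.5, 23.7, 11.1 and 7.14 RPKM, and Fgf11, an intracellular fibroblast growth factor homolog, read 11.2, 12.7, 6.35 and 3.60 RPKM. Grin3b, an NMDA receptor subunit found in motor neurons, read 1.77, 1.40, 0.875 and 0.422 RPKM, and was short of 1.5-fold with a pseudocount of 1, at -0.40. These 3 genes were lowest in G93A + SD and higher in both WT libraries than in G93A vehicle.

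Of 30 chaperone genes Hspb1 and Hspb6 rose and Hspe1 fell, and Hspe1, the mitochondrial co-chaperonin with 42.8% of its windows shared with other genes, read 7.60, 9.97, 19.7 and 9.83 RPKM. Of 24 immediate early genes 21 were higher in G93A + SD, while Arc, an activity-regulated synaptic protein, fell and read 6.36, 7.27, 6.15 and 3.99 RPKM, a difference that was short of 1.5-fold at -0.52 with a pseudocount of 1. Of 20 clock genes 18 were higher with a median of 0.12, and 1 rose. The hour of the day at which each mouse was killed is not given in the sources used here. Proteasome genes had 0 of 37 past 1.5-fold and orthologs of ALS genes 0 of 28.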
